A study of Mus musculus with 10 samples.

Results

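The interneuron identity genes are 10 genes whose RNA marks GABAergic interneurons or their main classes. They were chosen by name (Gad1, Gad2, Slc32a1, Sst, Pvalb, Vip, Npy, Cck, Reln and Lhx6) and found by symbol through their Ensembl identifiers, and they are 10 of the 53379 genes counted in every library. RNA-seq had been done on EYFP-positive cells sorted by FACS from the dissociated hippocampus of male C57BL/6 mice, 5 weeks old. The mice had an aversive, an appetitive or a neutral experience, and a mock group of such mice in the home cage was sequenced too. The tag needs 2 AAV9 viruses, c-Fos-tTA and TRE-ChR2-EYFP, and doxycycline keeps it off, so a cell carries EYFP if it took up both and was active while doxycycline was withdrawn. The aversive group (2 libraries) was given 4 foot shocks (2 s at 1.5 mA), the appetitive group (2 libraries) met a female mouse for 1 h, and the neutral group (3 libraries) visited the same conditioning cage with no stimulus. The mock group (3 libraries) stayed in the home cage and served the study as its untagged control, from fewer mice than the other groups. The labels mention the ChR2-YFP transgene for mock as well, so whether mock cells carried EYFP is unclear. By the labels 8 mice were pooled for each condition. No source states whether replicate libraries of the other groups were made from separate pools, so n counts libraries. The p-values measure only the spread between libraries, which may be technical.

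Interneurons are a small share of hippocampal neurons, and they release GABA onto pyramidal cells and onto each other. Glutamic acid decarboxylases make GABA and a vesicular transporter loads it into synaptic vesicles, so these genes are found in nearly every interneuron. The peptides somatostatin, neuropeptide Y, cholecystokinin and vasoactive intestinal peptide, the calcium buffer parvalbumin and the matrix protein reelin divide interneurons into classes, although pyramidal cells also make cholecystokinin and Cajal-Retzius cells make reelin. The homeobox factor Lhx6 marks interneurons born in the medial ganglionic eminence, which become the somatostatin and parvalbumin classes.

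Total counts ranged from 16968588 to 67650693 per library. Levels are given as CPM, that is counts scaled to a total of 1000000 after TMM normalization, a scaling that sets the bulk of genes equal between libraries. The smallest level that the depth could show was taken as 3 counts, which is 0.0346 to 0.235 CPM in a library, and this floor covers counting error only, since copies made by PCR were counted as reads. The neutral libraries were made with another kit and read on another sequencer (100 bp pairs, against single reads of 40 bp in all other groups), so the effects of the kit and of the neutral experience cannot be told apart. Defining markers of neurons were present in every library, with 8 to 12 of 12 pan-neuronal genes above 3 counts, but the marker lists of some other cells were far more abundant. The 12 pan-neuronal genes summed to 166 to 769 CPM per library. The 8 oligodendrocyte genes summed to between 7464 and 802900 CPM, and 8 genes of choroid plexus and ependyma to between 849 and 130500 CPM. The highest oligodendrocyte sum, in appetitive 1, rested on its TMM factor of 0.48 and was 385300 CPM on plain library totals. The part of these other cells in the results below was not tested.

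The interneuron genes were found library by library rather than together. The mock libraries 1, 2 and 3 had 9, 7 and 10 of the 10 genes above 3 counts. The aversive libraries 1 and 3 had 5 and 7, and the appetitive libraries 1 and 2 had 2 and 1. The neutral libraries 1, 2 and 3 had 3, 5 and 6, although they were the deepest of the series. Both appetitive libraries were thus below every other library, and every mock library was at or above every tagged one. The share of all 19754 tested genes above 3 counts followed part of this order, with 82.8% to 97.9% in mock, 60.4% and 77.4% in aversive, 43.4% and 51.1% in appetitive and 76.7% to 82.5% in neutral libraries. With every library scaled down to the smallest total, an alternative chosen after seeing the data, the number of interneuron genes fell by 1 in aversive 3 and in neutral 3 and was the same in the other 8 libraries. Gad1 and Gad2 were above 3 counts together in 4 of 10 libraries, Sst and Gad1 in 5, and Pvalb and Lhx6 in 6.

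**Figure D1:**
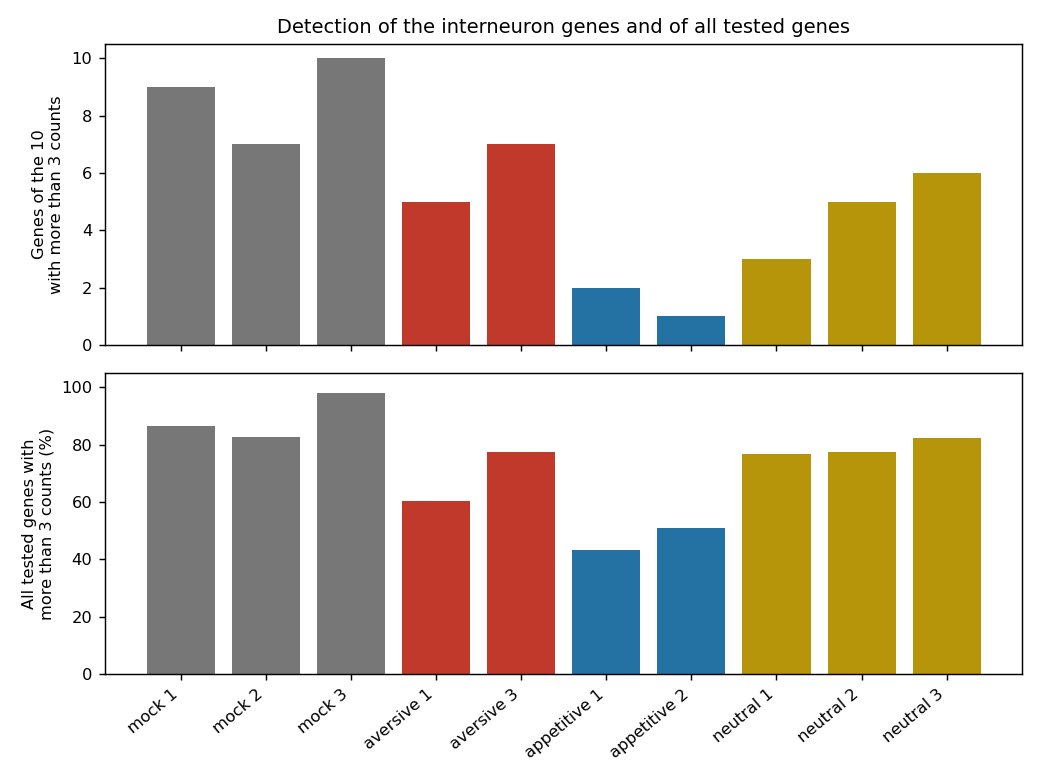
The upper bars give the number of the 10 interneuron genes with more than 3 counts in each of the 10 libraries, and the lower bars the percentage of all 19754 tested genes with more than 3 counts, colored by group. The appetitive libraries had 2 and 1 of the 10 genes and also the lowest shares of all genes (43.4% and 51.1%), while neutral 1 had 3 of the 10 genes at a share of 76.7%.

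Gad1, which encodes the decarboxylase that supplies most of the GABA of a resting interneuron, lies on chromosome 2 at 70553072 to 70602014 (GRCm38, plus strand). Its level was 7.96, 7.03 and 4.09 CPM in mock 1, 2 and 3 and 36.4 and 6.93 CPM in aversive 1 and 3. It had 0 counts in both appetitive libraries and in neutral 1 and 3, and 1.46 CPM (126 counts) in neutral 2. Gad1 was therefore found in every mock and aversive library and in 1 of 5 appetitive and neutral libraries, and the mock and aversive ranges overlapped. By group mean the order was aversive, mock, neutral and appetitive, and the ranges of neighbors overlapped except between mock and neutral. Every mock and aversive library was thus above every neutral and appetitive one. Its antisense gene Gad1os, which shares no exon bases with it, had 130 and 75 counts in neutral 1 and 3, where Gad1 had none. The pseudogene Gad1-ps had 40 counts in mock 3 and 0 in the other 9 libraries, and reads that fit both copies could be lost from Gad1.

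Gad2 encodes the decarboxylase bound to synaptic vesicles at the nerve terminal (chromosome 2, 22622205 to 22693874, plus strand). It reached 2.99, 0.521 and 3.03 CPM in the mock libraries. Elsewhere it had 6 counts in aversive 3 (0.120 CPM), 16 counts in neutral 3 (0.206 CPM) and 0 counts in the other 5 libraries. All 3 mock libraries were above every tagged library, and aversive 1, which held the highest Gad1 level of the series, had no Gad2 count. Slc32a1, the vesicular GABA transporter (chromosome 2, 158610767 to 158615748, plus strand), had 2, 1 and 12 counts in mock 1, 2 and 3, 1 count in aversive 3 and 0 counts in the other 6 libraries. Mock 3 was thus the only library above the floor of 3 counts for Slc32a1, and its absence elsewhere is a limit of detection. The 697 bases of its exons that an antisense gene shares gave no counts to that gene in any library.

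Sst, the peptide of the somatostatin class, which inhibits the dendrites of pyramidal cells, lies on chromosome 16 at 23889573 to 23890958 (minus strand). Its level was 3.90, 4.79 and 1.81 CPM in mock, 20.4 and 3.53 CPM in aversive, and 37.1 and 0.0524 CPM in appetitive libraries 1 and 2, the last from 1 count. The neutral libraries had 0.694, 0 and 0.450 CPM. Every mock and aversive library was above every neutral one, while the appetitive group held both the highest level of Sst in the series and one below the floor. The CPM of appetitive 1 depended on its TMM factor, and on plain library totals its Sst level was 17.8 CPM, still the highest.

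Npy, a peptide of several dendrite-targeting and neurogliaform interneurons (chromosome 6, 49822710 to 49829507, plus strand), was as uneven. It measured 5.02, 5.10 and 4.02 CPM in mock, 16.5 and 0.160 CPM in aversive, 51.3 and 0 CPM in appetitive and 0, 3.71 and 1.77 CPM in neutral libraries. Its mock libraries lay close together, whereas the aversive and appetitive libraries of a group were on both sides of them. On plain library totals appetitive 1 had 24.6 CPM of Npy. Appetitive 1 held 474 counts of Sst and 656 of Npy with 0 counts of Gad1, Gad2, Slc32a1, Cck, Reln and Lhx6.

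Pvalb, the calcium buffer of fast-spiking interneurons that inhibit cell bodies and axons, was the gene found in most libraries together with Sst, Npy and Cck, each above 3 counts in 8 of 10. It lies on chromosome 15 at 78191114 to 78206400 (minus strand). Its level was 5.97, 16.9 and 2.07 CPM in mock, 22.0 and 2.73 CPM in aversive and 1.89, 3.17 and 1.71 CPM in neutral libraries. The appetitive libraries had 1 count and 0 counts. Both appetitive libraries were below all 8 other libraries, whose ranges overlapped between groups.

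Cck, made by basket cells and also by pyramidal cells (chromosome 9, 121489824 to 121495694, minus strand), measured 12.1, 6.09 and 4.05 CPM in mock and 19.1 and 5.27 CPM in aversive libraries. Appetitive 2 had 8.38 CPM and appetitive 1 had 0 counts, the opposite of Sst and Npy in the same pair. The neutral libraries had 0, 2.11 and 0.463 CPM, each below every mock and aversive library. Vip, the peptide of interneurons that inhibit other interneurons (chromosome 10, 5639218 to 5647617, plus strand), had 6, 0 and 11 counts in mock, 3 and 0 in aversive, 1 and 0 in appetitive and 0 in all neutral libraries. Only mock 1 and mock 3 were above the floor for Vip, so no order of the tagged groups could be read from it.

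Reln encodes reelin, which interneurons and Cajal-Retzius cells secrete (chromosome 5, 21884454 to 22344702, minus strand). It had 118, 0 and 290 counts in mock 1, 2 and 3 (4.70, 0 and 4.01 CPM), 2 and 85 counts in aversive 1 and 3 (0.1001 and 1.70 CPM) and 0 counts in all appetitive and neutral libraries. An antisense gene that shares 246 bases of its exons had at most 4 counts in a library. Of 5 other Cajal-Retzius markers, 5, 0 and 4 were above 3 counts in the mock libraries, 0 and 1 in aversive, 0 in both appetitive and 1, 2 and 1 in neutral libraries, and mock 2, without Reln, had 0 counts of all 5. Their summed level went the other way in the neutral libraries, at 13.9 to 47.3 CPM against at most 10.49 CPM in mock, while Reln had 0 counts there. Their part in the Reln levels was not tested.

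Lhx6 lies on chromosome 2 at 36081953 to 36105408 (minus strand). It was found at 0.597, 2.55 and 1.15 CPM in mock and at 6.25, 6.58 and 0.0771 CPM in neutral libraries, the last from 6 counts. All 4 aversive and appetitive libraries had 0 counts. Neutral 1 and 2 held more Lhx6 than any mock library with Gad2 and Slc32a1 at 0, and aversive 1 and 3 held Sst and Pvalb, markers of the classes that Lhx6 specifies, with Lhx6 at 0. A small RNA gene that shares 104 exon bases with it had no count in any library.

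**Figure D2:**
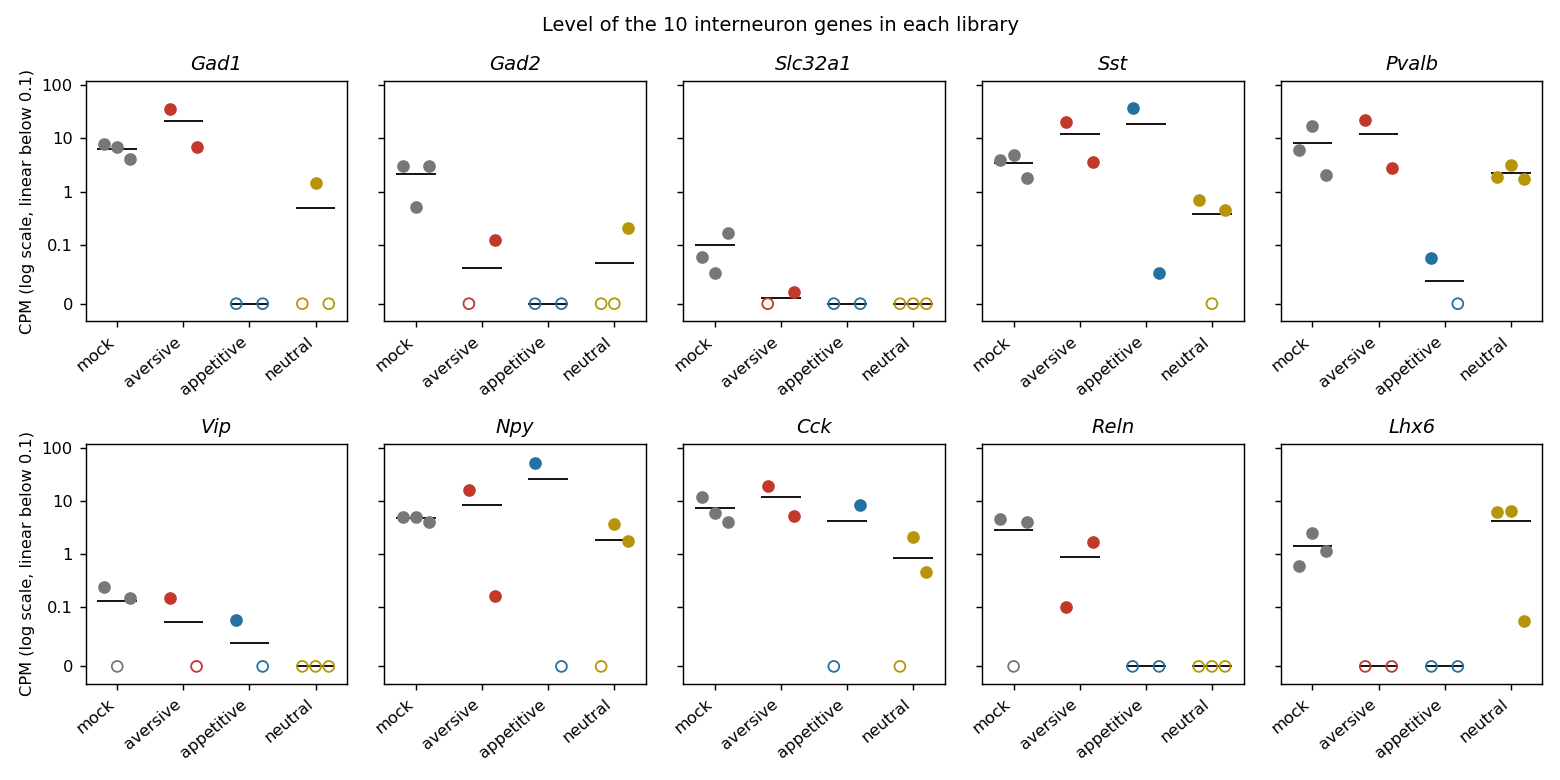
Each panel gives the CPM of 1 interneuron gene in the 10 libraries by group, on a log axis that is linear below 0.1. Filled points are libraries with counts, open points libraries with 0 counts, and lines the group means. All mock libraries had Gad1, Gad2, Slc32a1, Sst, Pvalb, Npy, Cck and Lhx6, while both appetitive libraries had 0 counts of Gad1, Gad2, Slc32a1, Reln and Lhx6.

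Per length of exon (RPKM, CPM per kilobase), the mock libraries fell into an upper and a lower set. Npy measured 8.33 ± 1.06 RPKM (SD, n = 3), Pvalb 7.98 ± 7.37, Cck 5.69 ± 3.23 and Sst 4.86 ± 2.12. Gad1 followed at 0.833 ± 0.265, Gad2 at 0.371 ± 0.244, Lhx6 at 0.298 ± 0.210, Reln at 0.122 ± 0.107, Vip at 0.0383 ± 0.0355 and Slc32a1 at 0.0355 ± 0.0212 RPKM. In this order the ranges of neighbors overlapped except from Sst to Gad1 and from Gad1 to Gad2, so Npy, Pvalb, Cck and Sst were above Gad1 and Gad2 in every mock library, and the order within this upper set was not resolved. Lhx6, Reln and Vip, which mark single classes or lineages too, had lower means than Gad1 and Gad2.

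**Figure D3:**
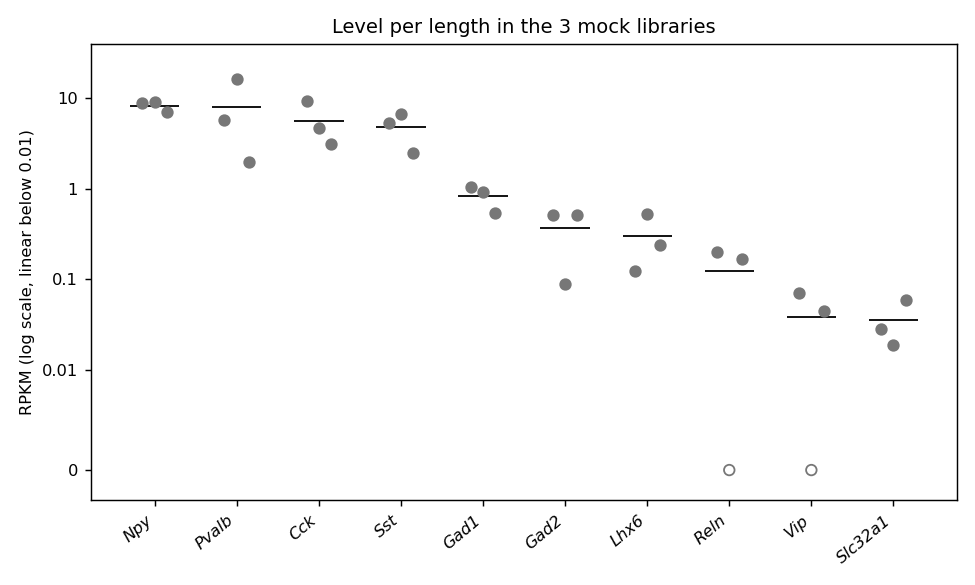
Points give the RPKM of each interneuron gene in the 3 mock libraries on a log axis that is linear below 0.01, with open points at 0 counts and lines at the mean, ordered by the mean. Npy, Pvalb, Cck and Sst, with means from 4.86 to 8.33 RPKM, lay above Gad1 at 0.833 RPKM, and Slc32a1 was lowest at 0.0355 RPKM.

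Of the 10 genes, 8 passed the filter on low counts and were tested, and Slc32a1 and Vip did not. A gene passes this filter if it is high in a group, so the tested genes are not a neutral choice. Genes were compared with edgeR's quasi-likelihood test on all 10 libraries and Benjamini-Hochberg adjustment over the 19754 tested genes. At an adjusted p under 0.05, 0 of 8 interneuron genes were called in any of the 6 comparisons. The background differed widely between these comparisons, and the members' counts are set beside it. The spread behind these tests was large, with a common coefficient of variation of 122% between libraries of a group. In such bulk material fewer interneurons and less RNA per interneuron cannot be told apart.

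The comparison of appetitive with aversive cells sets cells tagged by experiences of opposite valence against each other. These experiences also differed as tasks, which the paper raises as an alternative reading to valence, and the part of the task was not tested. The compared libraries shared a kit, but the model took its spread from all 10 libraries, neutral ones included. With all 10 libraries, 1.80% of all tested genes were called and 0 of 8 interneuron genes. With only the compared groups, the edgeR adjusted p of Gad1 and of Pvalb was 0.711. The values below are from the model of all 10 libraries. Without adjustment, 2 of 8 had a p under 0.05 (Gad1 and Pvalb, both lower in appetitive libraries), where 20.0% of all tested genes did. Gad1 was at 21.7 ± 20.8 CPM (SD, n = 2) in aversive libraries and at 0 counts in appetitive ones, at least 92.3-fold lower against the floor of 3 counts in an appetitive library (edgeR adjusted p = 0.165). Pvalb was at 12.4 ± 13.6 CPM in aversive libraries against 1 count over the appetitive group, a ratio of 394 with an interval of 70.6 to 15500 (95%, exact Poisson, for the counting of that 1 read alone; edgeR adjusted p = 0.118). Sst and Npy went the other way by their means, which rested on appetitive 1, with log2 fold changes of 0.63 ± 2.35 (SE) and 1.62 ± 2.81. The DESeq2 Wald test called 1 of the 7 genes it gave an adjusted p (Pvalb, lower), where it called 23.3% of all genes. Over the 8 genes the median log2 fold change was -3.06, and -1.74 over the 6 with a value when genes at or under the floor were set to their bound or ratio, against -0.48 over all tested genes.

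Appetitive and neutral libraries differed in 6.17% of all tested genes and in 0 of 8 interneuron genes. Without adjustment, 3 of 8 had a p under 0.05 where 29.3% of all genes did, namely Sst higher and Pvalb and Lhx6 lower in appetitive libraries. Sst had a log2 fold change of 5.60 ± 2.39 (SE; edgeR adjusted p = 0.151), and without appetitive 1 it turned to -2.87, so its direction rested on that library. Pvalb was at 2.26 ± 0.793 CPM (SD, n = 3) in neutral libraries, 71.9 times the level of the 1 appetitive count (interval 12.9 to 2840; edgeR adjusted p = 0.115). Lhx6 was at least 18.3-fold lower in appetitive libraries against the neutral mean (edgeR adjusted p = 0.103). Neutral 3 alone, at 0.0771 CPM, was below the appetitive floor of 0.235 CPM and did not show this difference. The DESeq2 Wald test called these same 3 genes of 7, where it called 28.3% of all genes. The median over the 8 fitted values was -2.34, and 0.62 over the 6 with a value at the bounds, against -0.91 over all tested genes, so even the sign of the median depended on how genes at 0 counts were taken.

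For aversive against neutral libraries, 0.0405% of all tested genes were called and 0 of 8 interneuron genes. Without adjustment 2 of 8 had a p under 0.05, where 19.1% of all genes did. Reln was higher by its aversive mean, at 0.902 ± 1.13 CPM (SD, n = 2) against 0 counts in all neutral libraries. This mean was at least 19.1-fold higher than the floor (edgeR adjusted p = 0.202). It rested on aversive 3, since aversive 1 had 2 Reln counts, under the floor of 3. Lhx6 was at least 28.7-fold lower against the neutral mean (edgeR adjusted p = 0.179). Neutral 3 alone, at 0.0771 CPM, was below the aversive floor of 0.15 CPM and did not show this difference. Gad1, Sst and Cck were higher by 5.47 ± 2.50, 4.96 ± 2.33 and 3.82 ± 2.33 on the log2 scale (SE), with unadjusted p-values of 0.0531, 0.0566 and 0.129, and both aversive libraries were above all neutral libraries for each of the 3. DESeq2 called Lhx6 and Reln, 2 of the 7 genes with an adjusted p, where it called 15.8% of all genes. The median log2 fold change over the 8 genes was 3.14 against -0.15 over all tested genes. The neutral group had its own kit, which cannot be told apart from these differences.

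The 3 comparisons against mock share its libraries, and by the study its cells were untagged, so tagging moves with each of them. Against mock, the appetitive libraries had 1.98% of all tested genes called and 0 of 8 interneuron genes. Without adjustment 4 of 8 were at a p under 0.05, all lower in appetitive libraries, where 23.8% of all genes were at that limit. Gad1 was at least 27.1-fold lower, Gad2 at least 9.28-fold and Lhx6 at least 6.10-fold (edgeR adjusted p = 0.167, 0.194 and 0.179). Pvalb was at 8.31 ± 7.67 CPM in mock (SD, n = 3), 265 times the level of the 1 appetitive count (interval 47.5 to 10500; edgeR adjusted p = 0.105). Reln was at least 12.4-fold lower against the mock mean with an unadjusted edgeR p of 0.0504, although mock 2 had no Reln count. DESeq2 called 3 of 7 (Pvalb, Gad2 and Lhx6, all lower) and 26.1% of all genes. The median was -8.38 over the 8 fitted values and -2.91 at the bounds, where the median of all tested genes was -1.45.

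Aversive and mock libraries differed in 0 tested genes, interneuron genes included, with edgeR. Without adjustment 1 of 8, Lhx6, had a p under 0.05 where 9.96% of all genes did, at least 9.54-fold lower in aversive libraries (edgeR adjusted p = 0.473). DESeq2 called Lhx6 alone of 7, and 8.09% of all genes. Gad1, Sst, Pvalb, Npy and Cck had log2 fold changes between 0.57 and 1.77, each smaller than its SE, and the median over the 8 genes was 0.64 against -0.13 over all tested genes.

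Neutral and mock libraries differed in 0.0861% of all tested genes and in 0 of 8 interneuron genes. Reln alone had an unadjusted p under 0.05, 1 of 8 where 13.5% of all genes did. It was at 2.90 ± 2.54 CPM in mock and at 0 counts in neutral libraries, at least 61.3-fold lower (edgeR adjusted p = 0.213), although mock 2 had no Reln count either. DESeq2 called Reln alone of 7, and 7.76% of all genes. Lhx6 had the only positive fold change, 1.59 ± 1.85 (SE), and the other 7 were negative, with a median over the 8 genes of -3.15 against 0.08 over all tested genes. Besides the tagging, by the study's account of mock, the kit also moves with this comparison.

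Set against neuronal RNA, the interneuron genes varied widely within groups. Their summed counts per 1000 counts on the 12 pan-neuronal genes were 111, 166 and 95.9 in mock, 164 and 26.6 in aversive, 117 and 33.2 in appetitive and 32.5, 102 and 25.0 in neutral libraries. Aversive 1, appetitive 1 and neutral 2 were within the mock range, and the other 4 tagged libraries were below every mock library. Which libraries stood below mock changed with the scale. The sums per 1000 counts on 12 glutamatergic pyramidal genes were 213, 483 and 165 in mock and 412 and 57.9 in aversive libraries. They were 138 and 380 in appetitive and 229, 357 and 74.3 in neutral libraries. Aversive 3, appetitive 1 and neutral 3 were thus below every mock library, and appetitive 2 and neutral 1 were not. The appetitive 2 sum was 161 counts, of which 160 were Cck, which pyramidal cells also make, against 424 pyramidal counts. Gad1, Gad2 and Slc32a1 alone summed to 28.2, 29.4 and 28.5 per 1000 pan-neuronal counts in mock, 52.0 and 9.20 in aversive, 0 in both appetitive and 0, 8.75 and 1.10 in neutral libraries. The 3 mock libraries were close to each other on this scale, and 4 of the 5 appetitive and neutral libraries were at 1.10 or less. The pan-neuronal sum itself was 254 and 760 CPM in appetitive libraries, against 256 to 391 CPM in mock. The higher of these rested on the TMM factor of appetitive 1 (0.48): on plain library totals it was 365 CPM, within the 243 to 371 CPM of mock. Each appetitive library had 8 of the 12 pan-neuronal genes above 3 counts, against 12 in each mock library. The pyramidal genes summed to 643 and 22.2 CPM in appetitive 1 and 2 and to 278 and 353 CPM in aversive libraries. They summed to 89.1 to 204 CPM in mock and 38.6 to 63.0 CPM in neutral libraries. On plain library totals appetitive 1 was at 308 CPM, between the 205 and 450 CPM of aversive 1 and 3. Other cells moved with the groups as well. The 8 astrocyte genes summed to 166 to 353 CPM in neutral libraries against 3270 to 15100 CPM elsewhere, and the 8 choroid plexus and ependyma genes to between 21380 and 130500 CPM in neutral against 849 to 13760 CPM elsewhere. The part of these lists in the interneuron values was not tested.

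**Figure D4:**
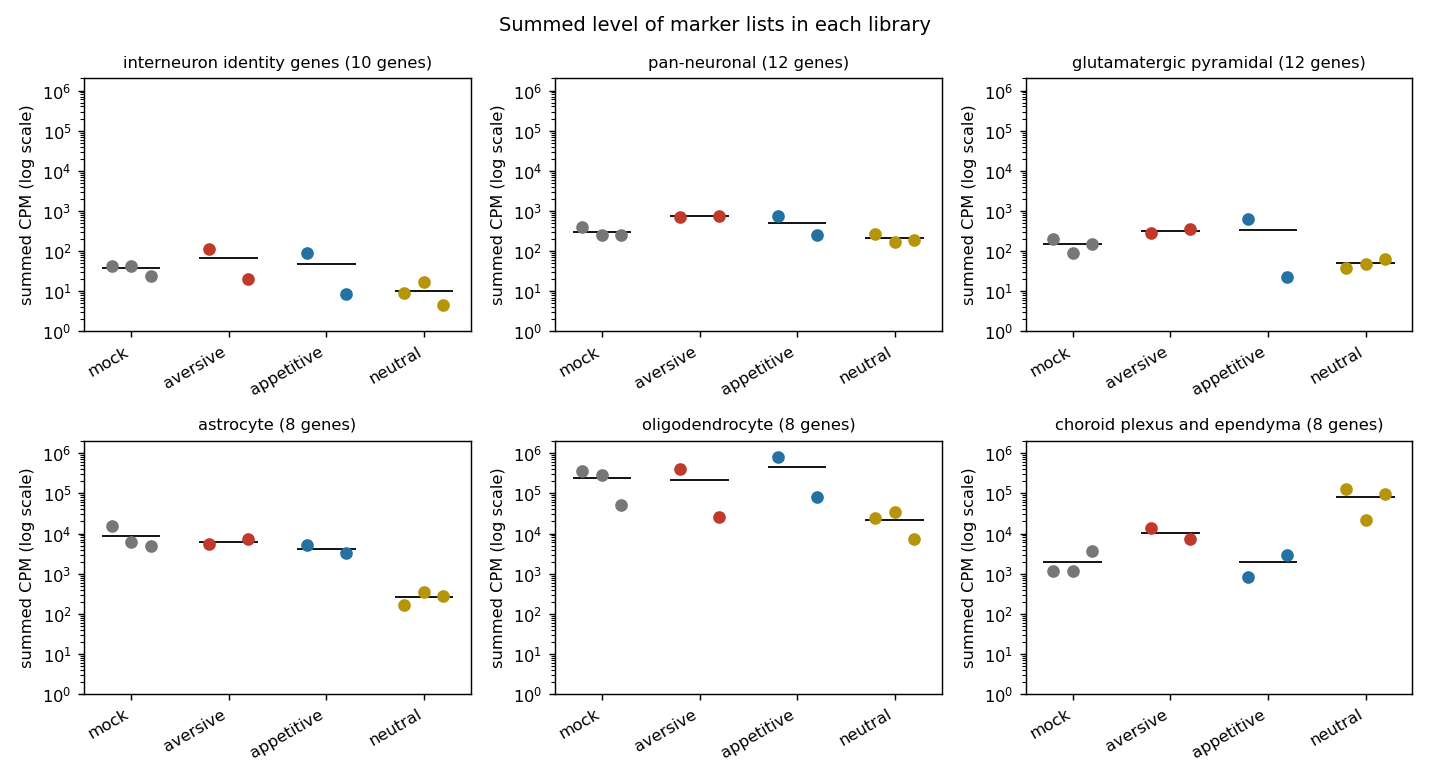
Each panel gives the summed CPM of a marker list in the 10 libraries by group on a log axis, with lines at the group means. The 10 interneuron genes summed to 4.68 to 115 CPM and the pan-neuronal list to 166 to 769 CPM. The oligodendrocyte list summed to as much as 802900 CPM, in appetitive 1 (385300 CPM on plain library totals). The neutral libraries stand below all others for astrocyte and above all others for choroid plexus and ependyma genes.

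The other genes of GABA handling, which are not confined to interneurons, were more evenly found. Of 10 such genes (transporters that take up GABA, enzymes that break it down and scaffold proteins of the inhibitory synapse), 9 to 10 were above 3 counts in mock, 8 and 10 in aversive, 5 and 8 in appetitive and 5 to 8 in neutral libraries. All 10 were tested, and 0 were called in any of the 6 comparisons. Of 15 transcription factors of interneuron development, 10 were tested. Of these, 1 was called, in appetitive against neutral libraries, where 6.17% of all tested genes were called. Prox1, which marks interneurons of the caudal ganglionic eminence and also dentate granule cells, was called higher in appetitive than in neutral libraries, and no other was called in any comparison. It had 872 and 6028 counts in appetitive 1 and 2 and 3, 4 and 0 counts in neutral libraries, a log2 fold change of 12.47 ± 2.77 (SE; edgeR adjusted p = 0.0313) in which the neutral side rests on these few counts. The call was lost without any 1 of the 3 mock or 3 neutral libraries (adjusted p = 0.0598 to 0.0902) and with only the compared groups (0.0951). Prox1 was also at 545, 167 and 4527 counts in mock and at 0 and 5387 counts in aversive libraries, so aversive 1 lacked it while holding the highest Gad1. The 5 dentate granule markers summed to 0.391 and 20.5 CPM in appetitive and 24.6 to 45.6 CPM in neutral libraries, opposite in order to Prox1.

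Among 22 further markers of interneuron classes, 16 to 21 were above 3 counts in mock, 5 and 12 in aversive, 1 and 2 in appetitive and 6 to 10 in neutral libraries. Of these 19 were tested. Sncg and Ndnf were called lower in appetitive libraries in each of the 3 comparisons with that group. In the other 3 comparisons 0 of 19 were called. Of all tested genes, 6.17%, 1.80% and 1.98% were called in appetitive against neutral, aversive and mock libraries. Sncg, a synuclein of a class of cholecystokinin interneurons, had 0 counts in both appetitive libraries, 3.39, 28.4 and 10.0 CPM in mock, 9.81 and 22.7 CPM in aversive and 27.3, 155 and 104 CPM in neutral libraries. It was at least 407-fold lower in appetitive than in neutral libraries, at least 69.4-fold lower than in aversive and at least 59.4-fold lower than in mock (edgeR adjusted p = 0.0173, 0.0371 and 0.0372). Ndnf, a secreted protein of neurogliaform interneurons, also had 0 counts in both, against 12.8, 20.2 and 33.7 CPM in mock, 11.96 and 26.9 CPM in aversive and 3.44, 56.7 and 15.3 CPM in neutral libraries. It was at least 107-fold, 82.8-fold and 94.6-fold lower than in neutral, aversive and mock libraries (edgeR adjusted p = 0.0265, 0.0451 and 0.0420). These calls were close to the threshold. For Sncg against neutral the call was lost without neutral 3 (adjusted p = 0.0566) and with only the compared groups (0.0951). For Sncg against aversive and against mock it was lost without any 1 of the mock and neutral libraries or without appetitive 1 (0.0531 to 0.0923 and 0.0586 to 0.105). For Ndnf against neutral it was lost without any 1 of the mock libraries, appetitive 1 or neutral 3 (0.0507 to 0.0666), and against aversive and mock without any 1 of the mock, appetitive and neutral libraries (0.0542 to 0.102 and 0.0505 to 0.120). With only the compared groups, both lost the call against aversive (0.711) and Ndnf against neutral (0.104), and library size alone ended that of Ndnf against aversive (0.0539). The fold changes stayed negative in all of these alternatives. Both were found in all 8 libraries outside the appetitive group, as Pvalb was among the 10 identity genes. In the appetitive libraries the 6 pericyte and smooth muscle genes summed to 191 and 301 CPM, against 202 to 5835 CPM elsewhere, and the 7 endothelial genes to 442 and 1481 CPM, against 382 to 3373 CPM elsewhere. The 5 fibroblast genes summed to 3.60 and 6.97 CPM in the appetitive libraries, below the 10.1 to 125 CPM of all 8 others. The part of these lists in Sncg and Ndnf was not tested.

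Receptors and effectors of the secreted peptides and of reelin were a list of 15 genes, of which 11 were tested. Of these, 1 was called, in appetitive against neutral libraries, where 6.17% of all tested genes were called. Dab1, the adaptor through which reelin receptors signal, was called higher in appetitive than in neutral libraries, and no other gene of the list was called in any comparison. It had 220 and 45.3 CPM in appetitive against 2.24, 2.47 and 0.437 CPM in neutral libraries, a log2 fold change of 6.27 ± 1.43 (SE; edgeR adjusted p = 0.0332). The call was lost without any 1 of the mock and neutral libraries or appetitive 1 (adjusted p = 0.0629 to 0.0962) and with only the compared groups (0.0951). Reln itself had 0 counts in both of these groups. The 8 astrocyte genes were lower in neutral libraries too, at 166 to 353 CPM against 3270 to 5069 CPM in appetitive ones. The 8 choroid plexus and ependyma genes went the other way, at 21380 to 130500 CPM in neutral against 849 to 2999 CPM in appetitive libraries. The part of these lists in Dab1 was not tested. Dab1 was at 109, 47.0 and 35.1 CPM in mock and at 4.75 and 88.6 CPM in aversive libraries, which overlapped the appetitive range in both groups.

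The tested genes whose pattern was most like that of Gad1, Gad2 and Slc32a1 were Cdca8, Prom2, Kif21b, Lingo1 and Kcnk10. Likeness was Pearson's r over the 10 libraries between log2(CPM + 1) of a gene and the mean of the standardized log2(CPM + 1) of the 3 GABA genes, and it was 0.959, 0.958, 0.956, 0.953 and 0.949 in this order. The libraries share groups, kits and depth, so these values are a description. Kif21b, the most abundant of them, measured 32.4, 13.6 and 32.4 CPM in mock, 11.2 and 2.87 CPM in aversive, 0.391 and 0.786 CPM in appetitive and 0, 0.104 and 0.0385 CPM in neutral libraries. As for Gad1 and Gad2, every mock library stood above every appetitive and neutral one, while Slc32a1 was too near the floor to show this. For Kif21b, as for Gad2, both aversive libraries were below every mock library, whereas Gad1 was highest in aversive 1.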

How the data were processed

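The authors mapped the first 40 bp of the reads to mm10 (GRCm38) with STAR and counted reads per Ensembl gene without strand with featureCounts of the Subread package. The deposited values are raw counts per gene, not normalized. Symbols, positions and exon lengths came from GENCODE M21, to which 53274 of 53379 identifiers matched. Groups came from the labels. The members and gene lists were chosen with earlier results of these data known. The genes named are the 10 members, list genes called in a comparison (at most 3 per direction) and the 5 most alike in pattern.

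Tests on the counts used edgeR 4.0.16 under R 4.3.3 (TMM factors from 0.48 to 1.45, filterByExpr with a minimum count of 10, 1 quasi-likelihood model of 4 groups over 10 libraries, two-sided, Benjamini-Hochberg adjustment over 19754 genes). Standard errors were derived from the F statistics. CPM used TMM totals, and RPKM divided them by union exon length. A fold against a group at 0 was bounded with 3 counts in the library of that group where this is the highest level. The other side of such a fold was the group mean, so the bound holds for the mean and not for each library. Total counts ranged from 16968588 to 67650693. Alternatives were DESeq2 1.42.0 (Wald test), its size factors, library size alone, no filter, only the groups compared, a replicate block and leaving out each library, and for levels plain totals and pyramidal in place of pan-neuronal counts. The steps were tested on simulated counts. Tables and figures used Python 3.11.15.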

Additional observations from a re-analysis of the deposited data

Results flagged for a closer look

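None of the 10 interneuron genes differed between the aversive and appetitive groups at an adjusted p under 0.05. Of the related list genes, Ndnf and Sncg differed between the aversive and appetitive groups, and so against the same reference, in a direct test. The adjusted p was 0.0451 and 0.0371 with edgeR's quasi-likelihood test and Benjamini-Hochberg adjustment. Both had 0 counts in the 2 appetitive libraries and were found in both aversive libraries. The appetitive libraries also had the lowest shares of all tested genes above 3 counts (43.4% and 51.1%). Both calls were lost with only the compared groups (edgeR adjusted p = 0.711 for both) and with the replicate block (0.160 and 0.126).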

How the results depend on the processing

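With 2 or 3 libraries per group and many genes at 0 counts, a called difference needs to be large and even, so a count of 0 calls does not show that a gene is the same in both groups. The number of interneuron genes called was 0 in all 6 comparisons, and it was also 0 with DESeq2's size factors, with library size alone and with the replicate block. With the DESeq2 Wald test it was 2 for aversive against neutral, 3 for appetitive against neutral, 1 for appetitive against aversive, 1 for aversive against mock, 3 for appetitive against mock and 1 for neutral against mock. Without the filter on low counts it was 1 for appetitive against aversive (Gad1, lower) and 0 elsewhere. With only the groups compared it was 4 for appetitive against mock (Pvalb, Gad2, Lhx6 and Gad1, all lower) and 0 elsewhere. Leaving out each library gave 0 to 1 for appetitive against mock, the 1 being Pvalb without aversive 3, and 0 for the other 5 comparisons. The cause of these changes was not tested. Over 12 pairs of libraries with the same replicate number, deviations from the group means correlated weakly, at -0.0371 to 0.164. In groups of 2 libraries the deviations mirror each other, so these values cannot decide whether replicate numbers pair the libraries. The block gave 0 calls of interneuron genes for every comparison, as the main model did. Over all genes it lowered the calls in appetitive against neutral libraries from 1218 to 73.

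Of 13 fold changes of single genes with an unadjusted p under 0.05, 204 values under the alternatives were computed. In 186 the gene stayed on the same side of the threshold and in the same direction, in 17 it passed an adjusted p of 0.05, and in 1 it turned: Sst in appetitive against neutral libraries went to -2.87 without appetitive 1, where leaving out each library in turn gave -2.87 to 6.54. The 8 calls of Sncg, Ndnf, Prox1 and Dab1 kept their direction in all 128 values under the alternatives and their side of the threshold in 65. The replicate block ended 7 of these 8 calls (adjusted p = 0.0807 to 0.160), and Sncg against neutral stayed called (0.0449). Library size alone moved the median log2 fold change of all genes by at most 0.54, in appetitive against neutral libraries (from -0.91 to -1.45). The number of interneuron genes found in a library was also counted at other limits chosen after seeing the data. At 10 counts or more it was 7 to 10 in mock, 5 and 5 in aversive, 3 to 5 in neutral and 2 and 1 in appetitive libraries. At 1 count or more appetitive 1 had 4 genes, above the 3 of neutral 1, so the order of these libraries depended on the limit. On plain library totals the summed interneuron genes had group means of 12.3 CPM for neutral, 26.0 for appetitive, 37.8 for mock and 55.2 for aversive libraries. With TMM the means were 10.2, 48.5, 37.1 and 67.6 CPM in this order. Each mean stayed within 1 SD, but the appetitive mean went from above the mock mean to below it.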
